A study of Mus musculus with 11 samples.

Results

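The 37 genes described here encode the lysosomal proton pump (the vacuolar H+-ATPase, V-ATPase), lysosomal membrane proteins and hydrolases, and the MiT/TFE transcription factors that control them. They were listed by symbol for their function, with earlier results of these data known. Each of the 37 was found among the 57180 Ensembl identifiers of the count table, with 1 identifier. All 37 passed the filter on low counts, with 120 to 132547 reads per gene and library. RNA came from alveolar macrophages, the phagocytes of the air spaces, sorted by flow cytometry from lungs of C57BL/6 wild-type mouse pups on postnatal day 7 and measured by bulk RNA-seq. Hyperoxia pups had breathed 95% oxygen from postnatal day 1 to day 5, giving 2 libraries from males (HM2 and HM3) and 3 from females (HF1 to HF3). Normoxia pups gave 3 libraries from males (NM1 to NM3) and 3 from females (NF1 to NF3). The labels do not say whether a library is 1 pup or a pool, so each p-value below reflects how far the libraries vary, and part of that variation may be technical.

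The V-ATPase is a rotary pump. Its cytosolic V1 sector hydrolyses ATP and turns a ring in the membrane-bound V0 sector, which carries protons into the lysosome, and the acid activates the hydrolases there. TFEB, TFE3 and MITF, the MiT/TFE factors, enter the nucleus when lysosomes are stressed or nutrients are short, and bind an E-box within the CLEAR element, a motif known from promoters of lysosomal genes. In alveolar macrophages, lysosomes break down the surfactant lipid and protein that these cells take up from the air space.

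The E-box CACGTG, which reads the same on both strands, was counted in promoter windows from RefSeq (build GRCm38.p6), each running from 250 bases before to 50 bases after a gene's start. Of the 37 members, 30 had an entry, with 39 windows in all. CACGTG was present in 11 of the 39 windows (28.2%), against 2349 of 32851 windows over all genes (7.15%). Counted by gene, 11 of 30 members (36.7%) held it in at least 1 window, against 8.09% of 27025 genes. The longer form TCACGTGA contains CACGTG and was present in 5 of 39 member windows (12.8%), against 0.974% of all windows. The 11 members with an E-box were Atp6v0b, Atp6v0d1, Atp6v0e, Atp6v1a, Mcoln1, Lamp1, Glb1, Naglu, Gaa, Lgmn and Gla. These matches describe letters in a window and are not measured binding sites. The first 4 sequences are Mcoln1, a textbook target of TFEB, and the members with the smallest p after hyperoxia that had an entry, Atp6v1f, Atp6v0b and Hexa. The last 4 are 60-base stretches around the first TCACGTGA of the other members that held one, picked because they held it. Gla held a second TCACGTGA, which starts at the end of its printed stretch and is not shown whole. Capitals mark each complete CACGTG.
Mcoln1 promoter, plus strand, chr8:3500269-3500568: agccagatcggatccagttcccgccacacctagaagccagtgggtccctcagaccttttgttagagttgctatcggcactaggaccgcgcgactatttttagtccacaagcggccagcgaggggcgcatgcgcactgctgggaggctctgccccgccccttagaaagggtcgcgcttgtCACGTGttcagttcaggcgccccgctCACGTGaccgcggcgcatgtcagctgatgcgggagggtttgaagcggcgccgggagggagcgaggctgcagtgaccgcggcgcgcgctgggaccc
Atp6v0b promoter, minus strand, chr4:117887280-117887579: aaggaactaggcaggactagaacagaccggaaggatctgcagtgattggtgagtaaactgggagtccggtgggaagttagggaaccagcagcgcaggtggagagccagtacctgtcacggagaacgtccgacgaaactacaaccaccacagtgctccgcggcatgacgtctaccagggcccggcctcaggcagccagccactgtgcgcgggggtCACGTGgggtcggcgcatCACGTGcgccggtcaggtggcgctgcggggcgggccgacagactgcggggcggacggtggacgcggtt
Atp6v1f promoter, plus strand, chr6:29467533-29467832: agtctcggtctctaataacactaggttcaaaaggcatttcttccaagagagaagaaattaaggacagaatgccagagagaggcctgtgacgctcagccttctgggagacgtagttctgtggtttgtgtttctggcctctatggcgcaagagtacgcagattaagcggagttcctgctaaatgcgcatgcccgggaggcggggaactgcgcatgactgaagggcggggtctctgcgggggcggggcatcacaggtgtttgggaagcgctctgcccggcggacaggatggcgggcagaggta
Hexa promoter, plus strand, chr9:59539290-59539589: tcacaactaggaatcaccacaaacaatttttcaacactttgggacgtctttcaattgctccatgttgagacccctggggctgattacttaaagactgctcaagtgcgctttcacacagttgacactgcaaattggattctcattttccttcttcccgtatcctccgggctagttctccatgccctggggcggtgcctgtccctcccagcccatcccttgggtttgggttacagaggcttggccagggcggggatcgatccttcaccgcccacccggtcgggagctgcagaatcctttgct
Atp6v0d1, minus strand, chr8:105566035-105566094: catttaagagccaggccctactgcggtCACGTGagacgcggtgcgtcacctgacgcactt
Atp6v1a, minus strand, chr16:44139358-44139417: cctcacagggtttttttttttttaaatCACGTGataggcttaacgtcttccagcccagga
Atp6v0e, plus strand, chr17:26676372-26676431: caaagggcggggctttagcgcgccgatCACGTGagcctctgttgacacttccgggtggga
Gla, minus strand, chrX:134601196-134601255: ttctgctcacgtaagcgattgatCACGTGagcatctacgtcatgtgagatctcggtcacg
Mcoln1 held CACGTG 71 and 45 bases before its start, the second within TCACGTGA. Atp6v0b held CACGTG 36 and 18 bases before its start, both outside the longer form, and the Atp6v1f and Hexa windows held none.

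Total counts ran from 18087948 (NM3) to 32579468 (NF1). Levels are given in CPM, counts relative to the library size after TMM scaling, which centres most genes. Alveolar macrophage markers (12 of 12 measured) summed to 4300 to 6010 CPM in hyperoxia libraries and 3940 to 6740 CPM in normoxia libraries, and none was at 0 in every library; 3 of the 12 fell after hyperoxia and none rose (edgeR, adjusted p under 0.05). Marker sums of other cells were 40.2 to 108 CPM in hyperoxia and 19.8 to 54.8 CPM in normoxia for 6 monocyte genes, and 28.7 to 111 CPM and 18.4 to 39.5 CPM for 6 interstitial macrophage genes. Both hyperoxia maxima were those of HF2, and the other hyperoxia libraries reached at most 57.8 and 50.1 CPM. All 6 tested monocyte genes and all 5 tested interstitial macrophage genes lay above 0 after hyperoxia (median log2 fold change 0.73 and 1.08). At an unadjusted p under 0.05 (edgeR) there were 1 and 4 of them, where 8.13% of all genes reached it. For 6 erythroid genes the sums were 52.2 to 302 CPM in hyperoxia and 101 to 1200 CPM in normoxia. Marker sums for neutrophils, endothelium, epithelium, mesenchyme, T and NK cells and B cells lay between 3.02 and 126 CPM in hyperoxia and between 2.21 and 78.4 CPM in normoxia, and no gene of a list other than the alveolar macrophage one passed. The part of these cells in the results below was not tested, and in bulk RNA fewer cells of a type and less RNA per cell cannot be told apart.

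HF3 and NM3, both labelled replicate 3, stood apart for the lysosomal genes. In HF3, 36 of 37 members lay below the normoxia mean, and in NM3, 34 of 37 did. Relative to the mean of the normoxia sexes, the median of the 37 members on the log2(CPM) scale was -0.01 in HM2, -0.03 in HM3, 0.06 in HF1, -0.17 in HF2 and -0.34 in HF3. It was 0.15, 0.20 and -0.57 in NM1 to NM3 and 0.11, 0.22 and -0.10 in NF1 to NF3. The median over all genes tested, taken with a small constant added to CPM, stayed between -0.05 and 0.05 in every library. TMM scaling centres most genes, so this was largely set by the scaling. The summed alveolar macrophage markers were also lowest in HF3 among hyperoxia libraries (4300 CPM) and in NM3 among normoxia libraries (3940 CPM). Genes with at least 1 count numbered 34236 in HF3 and 35530 in NM3, against 26856 to 35449 in the other libraries. Whether any of these measures accounts for the low members was not tested.

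**Figure D1:**
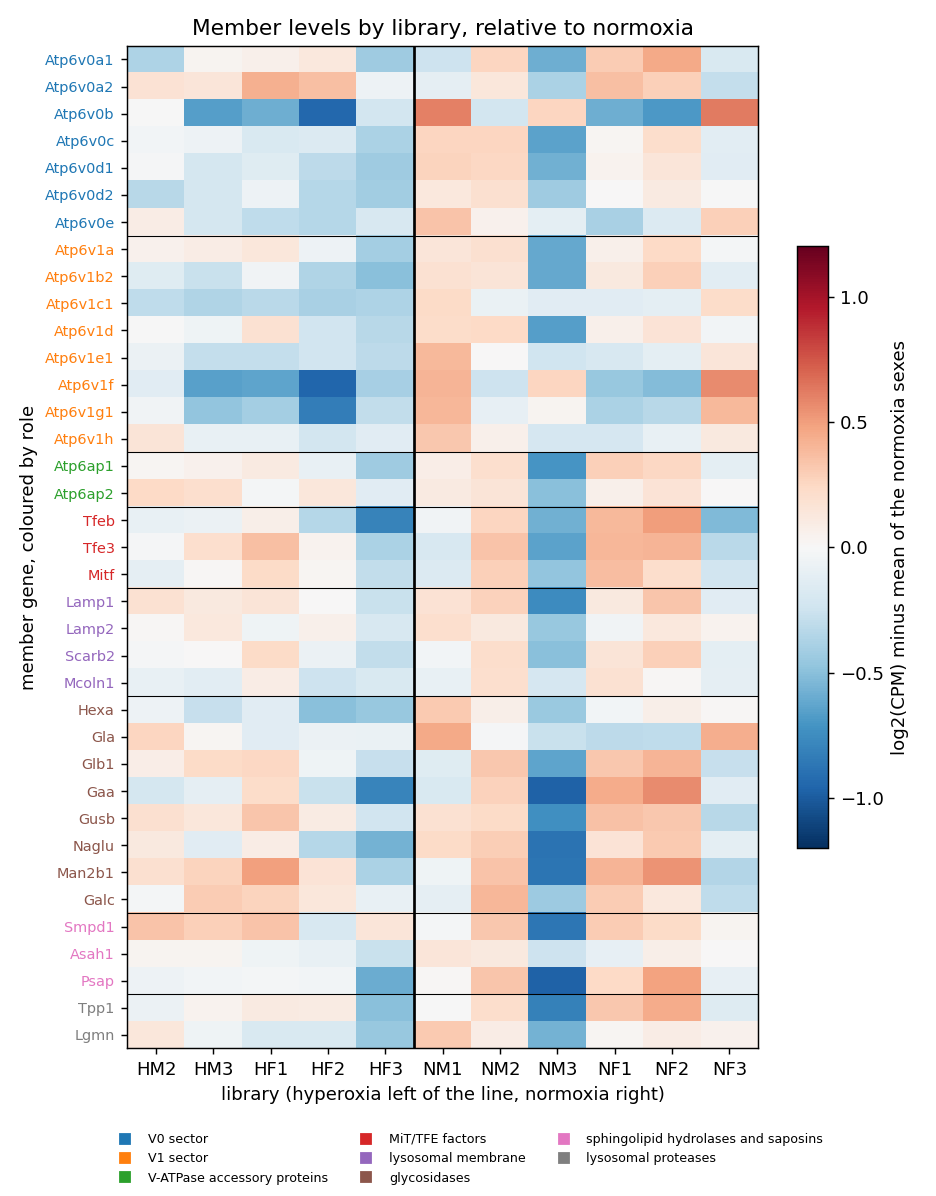
Levels of the 37 members in the 11 libraries as log2(CPM) minus the mean of the normoxia sexes (colour, red above and blue below), with genes in rows by role and libraries in columns. The HF3 and NM3 columns are blue for 36 and 34 of 37 members, and the rows of Atp6v0b, Atp6v1f and Atp6v1g1 share a pattern.

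The members spanned a wide range of levels per length, given as CPM per kb of exon (all exons of the gene in GENCODE M21). Psap, the precursor of the saposins that help lysosomal enzymes reach lipids, was highest, at 1122 ± 173 CPM per kb in hyperoxia and 1289.9 ± 383 in normoxia (SD, n = 5 and 6). Atp6v0d2, a d subunit of the V0 sector known from osteoclasts and macrophages, was next at 366 ± 37.1 in hyperoxia and 445 ± 62.3 in normoxia. Lamp1, a major lysosomal membrane glycoprotein, followed (278 ± 32.8 and 277 ± 66.3), and Hexa, the alpha chain of beta-hexosaminidase, came after it (158 ± 21.1 and 194 ± 31.5). At the low end were Tfe3 (4.31 ± 0.788 and 4.29 ± 1.24), Smpd1, acid sphingomyelinase (3.89 ± 0.564 and 3.50 ± 0.888), and Galc, galactosylceramidase (2.27 ± 0.272 and 2.12 ± 0.484, all SD, CPM per kb, same n). The order of the 5 highest and the 4 lowest was the same in hyperoxia and normoxia, and the SDs of Tfe3 and Smpd1 overlap in both. The length counts every annotated exon, 14879 bases for Galc and 3337 for Smpd1, and may exceed that of the transcripts made. In CPM without length, Galc lay above Smpd1 (means of 31.6 and 11.7 CPM in normoxia), so the order depends on the length used. Shares of isoforms below use the same lengths.

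No member passed the test after hyperoxia. Tested with edgeR (quasi-likelihood F test, Benjamini-Hochberg over 19948 genes), 0 of 37 members passed an adjusted p of 0.05 in hyperoxia against normoxia averaged over the sexes, where 0.707% of all genes did. The smallest adjusted p of a member was 0.447, for Atp6v1f. At an unadjusted p under 0.05 there were 2 members, both lower (Atp6v1f and Atp6v1c1), where 8.13% of all genes reached it and 3.33% did so as lower. DESeq2 and limma voom also called 0 members, where they called 446 and 141 of all genes (edgeR 141). They had 6 and 2 members at an unadjusted p under 0.05, for which their shares of all genes were not counted. The median log2 fold change of the 37 members was -0.10 (range -0.57 to 0.19), beside a median of -0.03 over all genes tested, and 28 of 37 (75.7%) lay below 0, beside 54.1% of all genes. For 35 of 37 members the 95% interval of the fold change lay within a 2-fold change in either direction. The other 2 were Atp6v1f (-0.57, interval -1.05 to -0.09) and Atp6v0b (-0.51, interval -1.05 to 0.04), whose lower bounds reached just past it. The median was -0.22 without NM3 and -0.06 without HF3, and no member passed in either. It was -0.13 without NM3, NF3, HF2 and HF3 together, the 4 libraries in which most genes were detected. That fit leaves HF1 as the only hyperoxia female library.

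**Figure D2:**
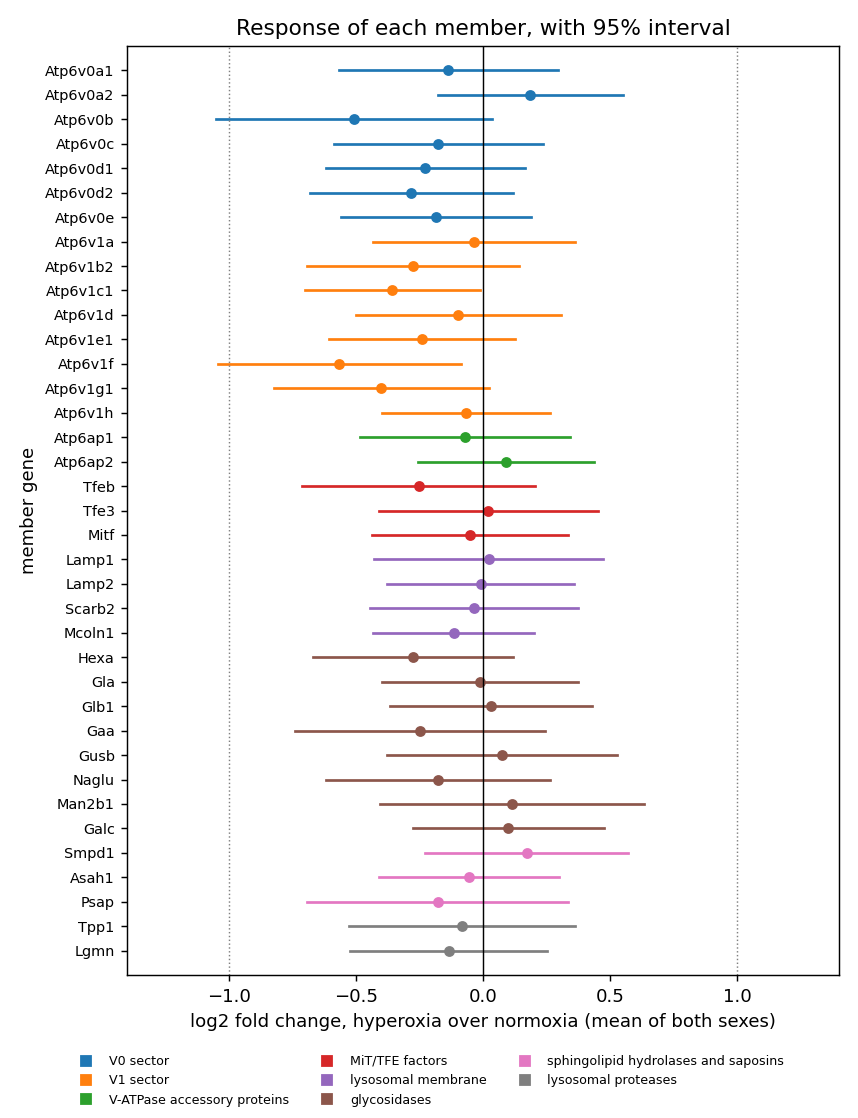
Log2 fold change of each of the 37 members, hyperoxia over normoxia averaged over the sexes (dots), with the 95% interval of the edgeR fit (lines), coloured by role. Dotted lines mark a 2-fold change, and the intervals of Atp6v0b and Atp6v1f alone cross one.

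In the V0 sector, 6 of 7 measured subunits lay below 0 and none passed the test (median -0.18). Atp6v0b, a proteolipid of the rotating ring, had the smallest p of the sector. It stood at 121 and 77.1 CPM in HM2 and HM3 and at 81.2, 63.3 and 104 CPM in HF1 to HF3. Normoxia levels were 185, 104 and 146 CPM in NM1 to NM3 and 81.0, 75.6 and 187 CPM in NF1 to NF3. The groups overlapped: 4 of the 5 hyperoxia libraries lay above NF2, the lowest in normoxia, and HM2 also above NM2 (log2 fold change -0.51 ± 0.26 SE, edgeR quasi-likelihood, Benjamini-Hochberg adjusted p = 0.670). Atp6v0c, the other ring proteolipid (-0.18), and Atp6v0e, a small membrane subunit (-0.18), ranged from 224 to 286 and 107 to 144 CPM in hyperoxia, against 188 to 351 and 103 to 171 CPM in normoxia.

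The d subunit, which couples the ring to the V1 stalk, can be filled by Atp6v0d1, present in most cells, or Atp6v0d2. Atp6v0d2 stood at 949 and 1039 CPM in HM2 and HM3 and at 1149.9, 944 and 896 CPM in HF1 to HF3. Normoxia levels were 1308, 1367 and 891 CPM in NM1 to NM3 and 1205, 1292 and 1195 CPM in NF1 to NF3. The groups overlapped, with NM3 the lowest of the 11 libraries (-0.28 ± 0.19 SE, adjusted p = 0.839 in the same edgeR test). Atp6v0d1 had 145 and 127 CPM in HM2 and HM3 and 132, 118 and 109 CPM in HF1 to HF3, against 177, 175 and 98.7 CPM in NM1 to NM3 and 151, 162 and 134 CPM in NF1 to NF3 (-0.23 ± 0.19 SE, adjusted p = 0.904). Per length, Atp6v0d2 exceeded Atp6v0d1 4.31-fold to 5.73-fold in the hyperoxia libraries and 4.89-fold to 5.96-fold in the normoxia libraries. It made up 83.8% ± 1.54 of their sum in hyperoxia and 84.3% ± 1.03 in normoxia (SD, n = 5 and 6), a difference within the spread between libraries (exact two-sided permutation test, p = 0.589, adjusted p = 0.785 over 4 shares).

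The a subunit, which forms the proton path and steers the pump to its membrane, was divided among Atp6v0a1, Atp6v0a2 and Tcirg1 (the a3 isoform, not one of the 37). Atp6v0a2 was the 1 V0 gene above 0 after hyperoxia, with 54.0 and 53.0 CPM in HM2 and HM3 and 64.2, 61.7 and 46.0 CPM in HF1 to HF3. Its normoxia levels were 44.3, 52.5 and 36.8 CPM in NM1 to NM3 and 61.6, 58.4 and 39.3 CPM in NF1 to NF3, so the groups overlapped (0.19 ± 0.17 SE, adjusted p = 0.937). Atp6v0a1 also overlapped, with 125 and 165 CPM in HM2 and HM3 and 168, 176 and 119.9 CPM in HF1 to HF3, against 135, 193 and 108 CPM in NM1 to NM3 and 198, 221 and 142 CPM in NF1 to NF3 (-0.14 ± 0.20 SE, adjusted p = 0.991). Per length, Atp6v0a2 took 14.2% ± 1.26 of the 3 a isoforms in hyperoxia and 12.1% ± 1.11 in normoxia (SD, n = 5 and 6). Its range was 12.3% to 15.8% in hyperoxia and 10.9% to 13.4% in normoxia. The exact two-sided permutation test gave p = 0.0216, which became 0.0864 over the 4 shares tested and did not pass. Atp6v0a1 took 39.2% ± 2.21 and 41.9% ± 5.38, and Tcirg1 46.5% ± 2.41 and 45.9% ± 6.09, with exact permutation p of 0.355 and 0.905.

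**Figure D3:**
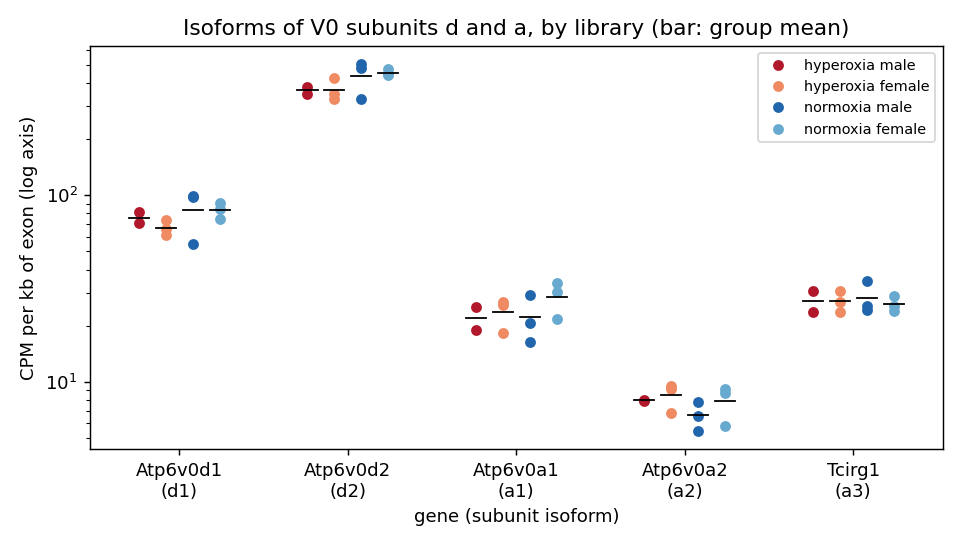
CPM per kb of exon (log axis) of the d isoforms Atp6v0d1 and Atp6v0d2 and the a isoforms Atp6v0a1, Atp6v0a2 and Tcirg1, 1 dot per library in the 4 groups, with a bar at each group mean. Atp6v0d2 lies 4.31-fold to 5.96-fold above Atp6v0d1 in the 11 libraries.

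In the V1 sector, 8 of 8 measured subunits lay below 0 and none passed the test (median -0.26). Atp6v1c1, subunit C of a peripheral stalk, which helps hold V1 to V0, stood at 126 and 121 CPM in HM2 and HM3 and at 125, 119 and 120.1 CPM in HF1 to HF3. In normoxia it stood at 183, 148 and 142 CPM in NM1 to NM3 and at 142, 144 and 181 CPM in NF1 to NF3. It was the 1 member whose hyperoxia libraries all lay below all normoxia libraries, described here after its values were seen, and 0.396% of all genes tested did so. Its log2 fold change was -0.36 ± 0.16 SE, with an adjusted p of 0.573 (edgeR, Benjamini-Hochberg). The groups of the other 36 members overlapped.

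Atp6v1f, subunit F of the central rotor, had the smallest p of all members (-0.57 ± 0.23 SE, adjusted p = 0.447 in the same test). It stood at 98.1 and 68.6 CPM in HM2 and HM3 and at 69.8, 55.7 and 81.7 CPM in HF1 to HF3, against 143, 90.6 and 129 CPM in NM1 to NM3 and 78.5, 75.2 and 159.8 CPM in NF1 to NF3. Within both oxygen groups it split the libraries: HM2 and HF3 were above the other hyperoxia libraries, and NM1, NM3 and NF3 above the other normoxia libraries. Atp6v0b was highest in the same 5 libraries of each oxygen group, as was Atp6v1g1, subunit G of the peripheral stalk. Atp6v1g1 reached 152 and 127 CPM in HM2 and HF3 and 88.4 to 118 CPM in the other hyperoxia libraries, against 206, 161 and 205 CPM in NM1, NM3 and NF3 and 121 to 146 CPM in the other normoxia libraries (-0.40 ± 0.20 SE, adjusted p = 0.658). Ctsh, a cathepsin outside the members, split the libraries in the same way. It reached 196 and 174 CPM in HM2 and HF3, against 125 to 155 CPM in the other hyperoxia libraries. In NM1, NM3 and NF3 it had 245, 235 and 244 CPM, against 146 to 179 CPM in the other normoxia libraries. The identifier with most counts in the table, which has no symbol in the name table, took 13.2% and 8.68% of the counts in HM2 and HF3 and 17.5%, 20.8% and 18% in NM1, NM3 and NF3. It took 4.80% to 10.7% in the other hyperoxia libraries and 8.17% to 12.8% in the other normoxia libraries. Its share thus followed the split in normoxia but not in hyperoxia, where HM3 (10.7%) lay above HF3 (8.68%). Summed erythroid markers were 1200, 535 and 748 CPM in NM1, NM3 and NF3, against 101 to 105 CPM in the other normoxia libraries. In hyperoxia they did not follow the split, at 52.2 and 251 CPM in HM2 and HF3 and 121 to 302 CPM in the others. The part of this identifier or of erythroid RNA in the levels of Atp6v1f, Atp6v0b, Atp6v1g1 and Ctsh was not tested.

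The remaining V1 genes are Atp6v1a, the catalytic subunit (-0.04), Atp6v1b2, its non-catalytic partner (-0.28), Atp6v1d of the rotor (-0.10), Atp6v1e1 of the peripheral stalk (-0.24) and Atp6v1h, a regulatory subunit (-0.07). Atp6v1b2 was the most abundant V1 gene by counts, with 246 to 336 CPM in hyperoxia libraries and 226 to 422 CPM in normoxia libraries. The accessory proteins were near 0 as a pair, Atp6ap1 at -0.07 ± 0.20 SE and Atp6ap2, also known as the prorenin receptor, at 0.09 ± 0.16 SE. Atp6ap2 stood at 88.8 and 86.6 CPM in HM2 and HM3 and 74.4, 82.8 and 68.5 CPM in HF1 to HF3, against 81.5, 84.1 and 53.3 CPM in NM1 to NM3 and 78.8, 84.8 and 75.8 CPM in NF1 to NF3. These groups overlapped, with NM3 the lowest library.

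The MiT/TFE factors were all transcribed, and none passed the test. Tfeb stood at 39.0 and 39.6 CPM in HM2 and HM3 and at 43.8, 32.7 and 23.9 CPM in HF1 to HF3, against 40.5, 49.7 and 27.9 CPM in NM1 to NM3 and 54.5, 59.1 and 28.9 CPM in NF1 to NF3 (-0.25 ± 0.22 SE, adjusted p = 0.921, edgeR quasi-likelihood with Benjamini-Hochberg adjustment). The groups overlapped, and HF3, NM3 and NF3 were the lowest of their groups. Tfe3 ranged from 29.4 (HF3) to 48.9 CPM (HF1) in hyperoxia, with 38.0, 44.0 and 39.5 CPM in HM2, HM3 and HF2. In normoxia Tfe3 had 33.5, 48.4 and 24.6 CPM in NM1 to NM3 and 50.3, 50.8 and 30.6 CPM in NF1 to NF3 (0.02 ± 0.20 SE, adjusted p = 0.998). Mitf, best known from melanocytes and osteoclasts, had 60.1 and 65.5 CPM in HM2 and HM3 and 76.3, 66.0 and 52.8 CPM in HF1 to HF3, against 57.9, 79.0 and 46.7 CPM in NM1 to NM3 and 84.0, 75.3 and 55.3 CPM in NF1 to NF3 (-0.05 ± 0.18 SE, adjusted p = 0.998). For all 3 factors HF3 and NM3 were the lowest libraries of their oxygen group. RNA levels do not show where these proteins were in the cell. Of 19 genes listed as regulators or partners of these factors, 0 passed, with Flcn, a part of the nutrient-sensing complex at the lysosome (-0.29), and Tfec, a related factor (-0.22), having the smallest p.

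Of the 4 lysosomal membrane genes none passed the test (median -0.02). Lamp1 (0.02 ± 0.21 SE), Lamp2, its partner in the membrane coat (-0.01 ± 0.17 SE), and Scarb2, which carries glucocerebrosidase to lysosomes (-0.04 ± 0.19 SE), lay close to 0. Mcoln1, the calcium channel TRPML1, had the smallest p of the 4, at 46.8 and 45.8 CPM in HM2 and HM3 and 53.0, 42.1 and 43.9 CPM in HF1 to HF3. Its normoxia levels were 47.0, 57.2 and 43.4 CPM in NM1 to NM3 and 56.6, 50.4 and 46.4 CPM in NF1 to NF3 (-0.12 ± 0.15 SE, interval -0.43 to 0.20, adjusted p = 0.978).

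Of 8 glycosidases, 4 lay above and 4 below 0 (median 0.01), and none passed. Hexa had the smallest p, with 367 and 315 CPM in HM2 and HM3 and 349, 270.4 and 279 CPM in HF1 to HF3, against 476, 401 and 282 CPM in NM1 to NM3 and 373, 402 and 386 CPM in NF1 to NF3. The groups overlapped, with NM3 the lowest normoxia library (-0.28 ± 0.19 SE, adjusted p = 0.839 in the same edgeR test). The others were Gaa, acid alpha-glucosidase (-0.25), Naglu, a heparan sulfate enzyme (-0.18), Gla, alpha-galactosidase (-0.01), Glb1, beta-galactosidase (0.03), Gusb, beta-glucuronidase (0.08), Galc (0.10) and Man2b1, alpha-mannosidase (0.11). Among the sphingolipid genes, Smpd1 had the smallest p, at 14.3 and 13.8 CPM in HM2 and HM3 and 14.3, 9.89 and 12.5 CPM in HF1 to HF3. In normoxia Smpd1 stood at 11.1, 14.1 and 6.19 CPM in NM1 to NM3 and 14.0, 13.2 and 11.6 CPM in NF1 to NF3, overlapping with hyperoxia (0.17 ± 0.19 SE, adjusted p = 0.967). Asah1, acid ceramidase (-0.06), ranged from 274 to 337 CPM in hyperoxia and from 277 to 365 CPM in normoxia. Psap ranged from 2232 (HF3) to 3319.6 CPM in hyperoxia and from 1726 (NM3) to 4715 CPM in normoxia (-0.18 ± 0.24 SE, adjusted p = 0.980). Of the proteases, Lgmn, legumain, had 208 and 182 CPM in HM2 and HM3 and 166, 166 and 137 CPM in HF1 to HF3, against 235, 200.5 and 127 CPM in NM1 to NM3 and 192, 200.2 and 195 CPM in NF1 to NF3 (-0.13 ± 0.18 SE, adjusted p = 0.980). Tpp1, tripeptidyl peptidase, was at -0.08 ± 0.21 SE.

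The series title names sex as its variable, so the response was compared between the sexes and the sexes with each other. No member passed the edgeR test of the female response, the male response, their difference (the interaction) or the sexes averaged over oxygen. The shares of all genes called were 0.0401%, 0.0401%, 0% and 0.0251%. No member had an unadjusted p under 0.05 in any of these 4 edgeR tests, where 4.53%, 5.5%, 1.67% and 3.27% of all genes did. DESeq2 and limma voom called 0 members in each. DESeq2 had 4 members at an unadjusted p under 0.05 in females and 0 in the others, limma voom 0 in all 4. Their shares of all genes at that p were not counted. In females DESeq2 called 96 of all genes, where edgeR called 8. In females 35 of 37 members lay below 0 (median -0.21, beside 0.00 over all genes tested, of which 50.6% lay below 0). In males 16 of 37 did (median 0.04, beside -0.05 over all genes tested, of which 54.4% lay below 0). The female response minus the male response lay below 0 for 35 of 37 members, with a median of -0.22 beside 0.01 over all genes tested, of which 49% lay below 0. This median was -0.06 without NM3, -0.14 without HF3 and 0.06 without NM3, NF3, HF2 and HF3 together, and the male median was -0.16 without NM3. The fit without these 4 libraries leaves HF1 as the only hyperoxia female library, so its value rests on that library. Gaa had the most negative difference, -0.59 ± 0.46 SE (interval -1.56 to 0.39), with -0.54 ± 0.31 SE in females and 0.05 ± 0.35 SE in males.

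**Figure D4:**
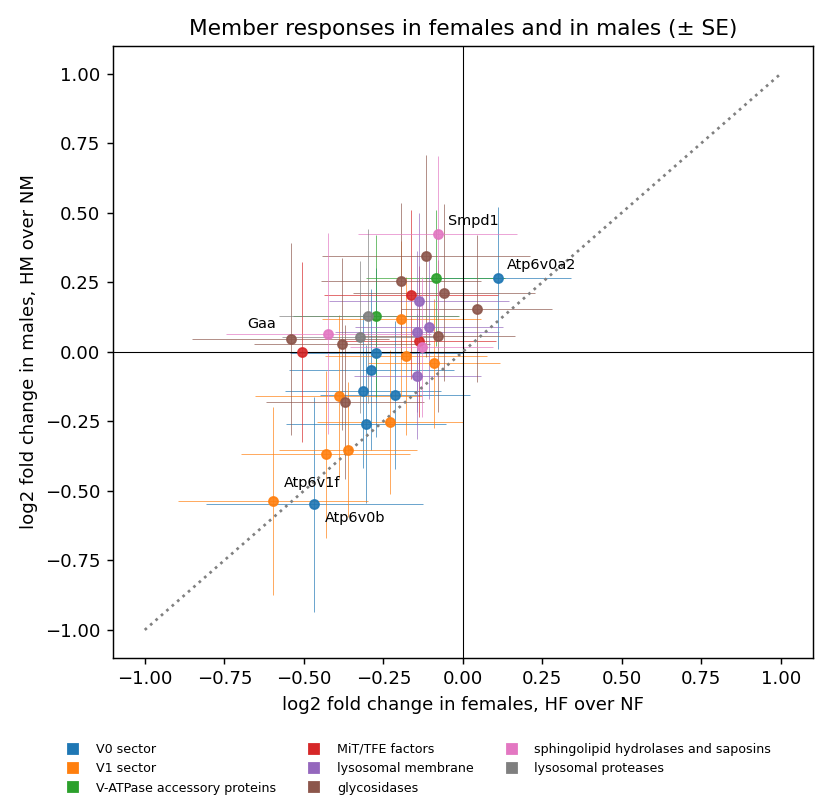
Log2 fold change after hyperoxia in females (HF over NF, horizontal) and in males (HM over NM, vertical) for the 37 members, with SE bars, coloured by role; on the dotted line both sexes respond alike. Most members lie left of the vertical zero line (35 of 37 below 0 in females) and on both sides of the horizontal one (16 of 37 below 0 in males), while Atp6v1f and Atp6v0b lie low in both sexes.

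Averaged over oxygen groups, the female minus male log2 difference of the members ran from -0.30 (Atp6v0b) to 0.23 (Gaa), with a median of 0.00. Of the 37 members 5 lie on the X chromosome, of which female cells silence 1 copy. Their female minus male differences were 0.12 ± 0.21 SE for Tfe3 (interval -0.31 to 0.56), 0.04 ± 0.20 SE for Atp6ap1 (interval -0.37 to 0.46) and -0.03 ± 0.17 SE for Lamp2 (interval -0.40 to 0.34). For Atp6ap2 and Gla they were -0.05 ± 0.16 SE (interval -0.39 to 0.30) and -0.18 ± 0.18 SE (interval -0.56 to 0.21). None passed the test, and none of these intervals reached a 2-fold difference.

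The other lysosomal genes were taken from 6 lists with 107 genes, of which 103 were tested. After hyperoxia 3 of the 103 passed in edgeR's test, 1 higher and 2 lower, where 0.541% of all genes passed as higher and 0.165% as lower. The lists were chosen with earlier results of these data known, so these counts are not independent of the data. Tpcn1, a cation channel of endosomes and lysosomes, rose. It stood at 8.12 and 8.27 CPM in HM2 and HM3 and 10.2, 9.65 and 7.14 CPM in HF1 to HF3, against 4.38, 3.33 and 3.72 CPM in NM1 to NM3 and 5.50, 5.05 and 4.48 CPM in NF1 to NF3. All hyperoxia libraries lay above all normoxia libraries (0.97 ± 0.17 SE, edgeR, Benjamini-Hochberg adjusted p = 0.0135), as did 1.76% of all genes tested. Its relative Tpcn2 did not pass (0.47 ± 0.16 SE, adjusted p = 0.284). The call of Tpcn1 was lost without HM2 (0.99), without HM3 (0.98) or without the 4 libraries with most genes detected (1.02), with the fold change as large. Each of these fits leaves 1 library in a hyperoxia group. Over all 18 alternatives its adjusted p ran from 1.16e-04 to 0.0989.

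Mcoln3, the channel TRPML3 and a relative of Mcoln1, fell. It stood at 44.8 and 46.4 CPM in HM2 and HM3 and 70.7, 39.4 and 36.5 CPM in HF1 to HF3, against 113, 119 and 69.1 CPM in NM1 to NM3 and 112, 115 and 106 CPM in NF1 to NF3. The groups overlapped only in HF1 and NM3, the highest hyperoxia and the lowest normoxia library (-1.16 ± 0.21 SE, edgeR quasi-likelihood, Benjamini-Hochberg adjusted p = 0.0139). The call was lost without HM2 (-1.14, adjusted p = 0.140), HM3 (-1.17, adjusted p = 0.141) or HF2 (-1.09, adjusted p = 0.0571), and over all 18 alternatives its adjusted p ran from 3.07e-07 to 0.141. In each sex alone neither channel passed. Mcoln3 was at -1.18 ± 0.27 SE in females and -1.14 ± 0.31 SE in males, and Tpcn1 at 0.84 ± 0.23 SE and 1.11 ± 0.26 SE. The other gene that passed was Ctsk, cathepsin K, a protease known from osteoclasts, which fell to 40.8 and 46.6 CPM in HM2 and HM3 and 44.2, 32.0 and 34.2 CPM in HF1 to HF3, against 199, 119 and 113 CPM in NM1 to NM3 and 97.1, 101 and 217 CPM in NF1 to NF3, with no overlap (-1.81 ± 0.25 SE, adjusted p = 0.00189). Over both sexes Ctsk passed under all 18 alternatives tried. It passed in females alone (-1.91 ± 0.32 SE, adjusted p = 0.0422, edgeR) and not in males alone (-1.72 ± 0.37 SE, adjusted p = 0.146), and the female response minus the male response did not pass (-0.19 ± 0.47 SE, interval -1.18 to 0.79).

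**Figure D5:**
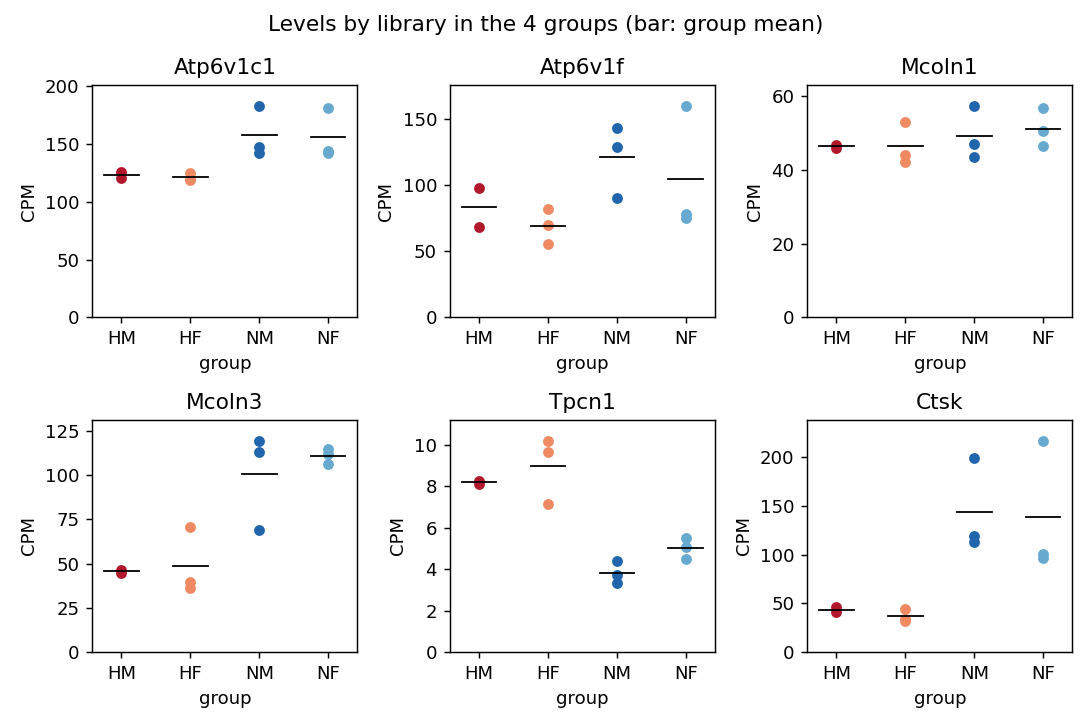
CPM (vertical axis, starting at 0) of Atp6v1c1, Atp6v1f, Mcoln1, Mcoln3, Tpcn1 and Ctsk in the groups HM, HF, NM and NF, 1 dot per library with a bar at the group mean. Hyperoxia dots lie below all normoxia dots for Atp6v1c1 and Ctsk and above them for Tpcn1, Mcoln3 overlaps only in HF1 and NM3, and the groups of Mcoln1 overlap.

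By list, 1 of 26 other membrane proteins was higher and 1 lower (median -0.06), and 1 of 11 cathepsins was lower (median -0.25), Ctsl being next by p (-0.35). None of 29 other hydrolases passed (median 0.00). Those with the smallest p were Sgsh, a heparan sulfate sulfamidase (0.88 ± 0.25 SE, adjusted p = 0.158), and Arsb, arylsulfatase B (0.69 ± 0.22 SE, adjusted p = 0.219). None of 12 other V-ATPase subunits and assembly factors passed (median 0.03), with Tmem199 (-0.23) and Atp6v1c2 (0.98 ± 0.80 SE) having the smallest p. Atp6v1c2 was barely detected, with 1 to 19 reads per library. It ranged from 0.262 to 0.709 CPM in hyperoxia and from 0.0318 to 0.819 CPM in normoxia. None of 6 genes of enzyme sorting passed, Igf2r, the mannose 6-phosphate receptor (0.73 ± 0.25 SE, adjusted p = 0.269), and Gnptg, a subunit of the enzyme that adds this tag (-0.33), being first by p.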

How the data were processed

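The authors deposited 1 table of raw counts, whole numbers for each Ensembl identifier in each library, without normalization. A low-input full-length cDNA kit was used, per the labels' protocols, and the molecular identifiers and adapter were trimmed off. Libraries under a name that matches no title were cleared of short fragments and sequenced again. DESeq2 1.42, R 4.3.2, Salmon 1.10.1, STAR 2.7.9 and Trim Galore 0.6.7 are named in the submitters' processing notes, with build mm39. What each did, the strand setting and any collapsing of duplicates were not given in the sources used here, so overlapping or antisense genes may share reads. 

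Symbols were matched by Ensembl identifier (51884 of 57180, 90.7%). Counts were fitted in R 4.3.3 with edgeR 4.0.16: expression filter, TMM, 1 mean per group over all 11 libraries, robust quasi-likelihood, 5 contrasts, called under an adjusted p of 0.05. SEs and 95% intervals come from that fit. DESeq2 1.42.0 and limma 3.58.1 (voom) were alternatives. The procedure was tested on simulated data. No libraries of a group agreed within counting noise (smallest chi-square per gene 18.1).

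The members and lists were chosen with earlier results of these data known. Values in every library are given for the MiT/TFE factors, Atp6v0a1, Atp6v0a2, Atp6v0d1 and Atp6v0d2, the member with the smallest p in each of 8 roles, and called genes. From the other lists, called genes and the 2 with the smallest p are named. Protein sequences were not used here.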

Additional observations from a re-analysis of the deposited data

Results flagged for a closer look

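Over the 37 members, the 5 hyperoxia and the 6 normoxia libraries were each searched for a library far from the rest, as its gap to the nearest library divided by the whole range on the log2(CPM) scale. Of 74 such groups, 10 held one, where chance gives about 1 in 20. In hyperoxia the library was HF3 both times, lowest for Psap (ratio 0.940) and Tpp1 (0.710). In normoxia it was NM3 all 8 times, lowest for Atp6v0d2 (0.685), Atp6v1a (0.689), Atp6v1d (0.704), Atp6ap2 (0.759), Lamp2 (0.635), Naglu (0.636), Smpd1 (0.708) and Lgmn (0.667). The members of a library are not independent of each other.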

How the results depend on the processing

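No member passed an adjusted p of 0.05 in any of the 5 comparisons under any of 18 alternatives (DESeq2, RLE scaling, no low-count filter, a CPM of 1 in 2 libraries, a replicate block, limma voom, leaving out NM3, NF3, HF2 and HF3 together, and leaving out each library in turn), and the smallest adjusted p of a member after hyperoxia was 0.0967, with DESeq2. The calls over all genes after hyperoxia, 141 as reported, numbered 446 with DESeq2, 302 without the filter, 270 with a CPM of 1 in 2 libraries, 256 with the block and 23 without the 4 libraries. Leaving out each library in turn gave 36 to 195. The median log2 fold change of the members ran, over the libraries left out in turn, from -0.22 to -0.04 after hyperoxia, from -0.34 to -0.12 in females, from -0.16 to 0.20 in males, from -0.37 to -0.06 for the difference between these responses and from -0.07 to 0.08 for female minus male. Without the 4 libraries, HF1 is the only hyperoxia female library left. The median difference between the responses was then 0.059, in place of -0.22, and the cause was not tested. Up to 6 members, all uncalled, changed sign after hyperoxia under a single alternative. The longer form TCACGTGA contains the E-box, so its share of member promoter windows could not exceed 28.2%. It was 12.8%, against 0.974% of all windows. With windows cut to start 100 bases before the gene's start, 20.5% of member windows held CACGTG, against 4.35% of all windows. Replicate numbers were not taken as pairs, and the deviations of libraries that share a number had correlations from -0.17 to 0.57. HF3, NM3 and NF3 did deviate together (HF3 with NM3 0.49, HF3 with NF3 0.43, NM3 with NF3 0.57). HM3, of the same number, had -0.11, -0.08 and -0.14 with HF3, NM3 and NF3. Deviations from a group mean sum to 0, so HM2 and HM3, alone in their group, mirror each other exactly. For the same reason a correlation between different numbers, such as HF1 with NM2 (0.51), is not separate from the others. These correlations therefore cannot decide whether the numbers mark pairs. With the replicate block, 0 members passed and the median was -0.05. A member was read 120 to 132547 times in a library, so the spread between libraries and their number, not counting error, set most of the precision.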
